A study of Rattus norvegicus with 12 samples.

Results

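The 8 genes described here encode the peptide transporter of the endoplasmic reticulum and its docking protein (Tap1, Tap2 and Tapbp), the catalytic subunits of the immunoproteasome (Psmb8, Psmb9 and Psmb10) and both subunits of the proteasome activator PA28 (Psme1 and Psme2). They were chosen by name, and every probe set that the platform annotation assigns to one of these symbols alone was taken, which gave 10 of the 31042 probe sets tested. Tap1 and Psme1 have 2 probe sets each and the other genes 1. Values are log2 RMA values from 12 Affymetrix arrays of primary hepatocytes of Wistar rats, freshly isolated liver cells kept in short-term culture. From the day after isolation the cells received 250 U/ml rat interferon alpha for 3 h or 6 h, or were cultured for the same times without it. Each of the 4 groups holds 3 arrays labelled as biological replicates 1 to 3, with replicate numbers shared by all groups. No genetic change is given for any group, and the sources used here do not say whether replicates came from separate animals, so p-values measure the spread between these samples.

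Cells show samples of their own proteins on the surface, bound to MHC class I molecules. The proteasome cuts proteins into peptides in its barrel-shaped 20S core, which carries a set of catalytic beta subunits. In cells exposed to interferon or other inflammatory signals, newly built cores can take up Psmb8, Psmb9 and Psmb10 in place of Psmb5, Psmb6 and Psmb7, and such a core is called an immunoproteasome. Psme1 and Psme2 form the PA28 ring, which caps the core and eases the exit of peptides. Tap1 and Tap2 together form the pump that carries peptides into the endoplasmic reticulum, and Tapbp (tapasin) ties the pump to class I molecules waiting for a peptide. Hepatocytes carry little of this machinery at rest compared with immune cells, and infected liver is a classic site of its induction. Interferon alpha acts through its receptor on the factor ISGF3, which binds a DNA element called the ISRE. A different element of interferon-responsive genes is called GAS.

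In the RefSeq gene order of assembly GRCr8, Tap2, Psmb8, Tap1 and Psmb9 are consecutive protein-coding genes on chromosome 20, next to class II genes of the rat MHC. Tapbp lies on the same chromosome, 24 protein-coding genes away from Tap2. Psme1 and Psme2 lie on chromosome 15 with 1 gene, Emc9, between them, and Psmb10 lies on chromosome 19. The promoter windows in RefSeq, which cover 250 bases before and 50 bases after each gene's start, were searched on both strands for the ISRE-type letters GAAANNGAAA. The windows of 6 of the 8 genes hold them, against 3.92% of the 33469 promoter windows of the same length. The GAS-type letters TTCNNNGAA are in 1 of the 8 windows, that of Psmb8 at -245, against 8.87% of all windows. A match is a run of letters and not a measured binding site.

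The stretches around the matches in these 6 windows are printed below in the direction of each gene, from assembly GRCr8. The letters of the pattern or of its reverse complement are in capitals. All 6 genes are read from the minus strand. Positions are counted from the gene's start, with -1 the base just before it. Tap1 has its match at -121 (chr20:4668635-4668684), Tap2 at -41 (chr20:4652308-4652357) and Psme2 at -53 (chr15:33052775-33052824). Tapbp has a pair of matches that overlap, at -26 and -20 (chr20:4967878-4967923). Psmb10 has matches at -73 and -17 (chr19:50743293-50743385). The match of Psmb8 begins at -4 and runs 6 bases past the annotated start (chr20:4657026-4657055).
Tap1: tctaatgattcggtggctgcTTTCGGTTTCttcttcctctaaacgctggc
Tap2: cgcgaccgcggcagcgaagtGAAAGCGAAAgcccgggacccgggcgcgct
Tapbp: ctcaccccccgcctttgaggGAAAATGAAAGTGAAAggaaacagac
Psmb8: cctcctcttggtgctgtggcTTTCGCTTTC
Psmb10: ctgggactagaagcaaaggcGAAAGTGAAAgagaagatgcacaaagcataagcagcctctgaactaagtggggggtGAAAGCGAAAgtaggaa
Psme2: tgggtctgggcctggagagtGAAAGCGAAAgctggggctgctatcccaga

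Psmb9 and Psme1 have no match within their windows. Tap1 and Psmb9 are read away from each other from starts 457 bases apart, and the Tap1 match lies 336 bases before the Psmb9 start, just outside the Psmb9 window. The Psme1 window ends on TTTCGCTT, which is as much of the reverse complement of the pattern as fits before the window closes, an observation made after the sequences were seen. The windows of Psmb5 and Psmb7 hold neither set of letters.

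Array medians ran from 5.16 to 5.21 log2 and correlations between arrays from 0.979 to 0.997, and 0 pairs of arrays were identical. The labelled cell type was borne out by its markers: Alb, Serpina1, Ttr and 6 other hepatocyte genes stood at or above the percentile 97.4 of all probe sets. All 13 measured lymphocyte and NK cell markers and all 4 measured neutrophil markers lay below the array median. Of the Kupffer cell and macrophage markers 4 of 10 lay below it, and of the class II and dendritic cell markers 4 of 10. The others of both lists lay above it, with Cd14 and Lyz2 of the Kupffer list at the percentiles 98.3 and 95.3. Of 69 measured markers of hepatocytes and other cells, 0 were called with interferon at 3 h or 6 h in limma, with or without the replicate number in the model. Of all 14217 genes, 1 was called higher at 3 h and 80 at 6 h, or 15 and 206 with the replicate number. At such shares a count of 0 among 69 says little about the cells present. At an unadjusted p under 0.05 the marker counts were 3 at 3 h and 1 at 6 h, or 5 and 2 with the replicate number in the model. The counts over all 14217 genes were 385 and 523, or 964 and 1233 with the replicate number.

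At 6 h, interferon alpha raised Tap1 5.08-fold, and all 10 member probe sets had a fitted change above 0. With the replicate number as a block, which compares treated and control arrays of the same number, 7 of the 8 genes rose: Tap1, Psmb9, Tap2, Psmb10, Psmb8, Tapbp and Psme2, in falling order of change. Only Psme1 did not pass. Without the block, 1 of 10 member probe sets passed, that of Tap1, where 0.387% of all probe sets were called higher. With it, 7 of 10 passed, where 1.06% of all probe sets were called higher. The median change of the member probe sets was 0.64 log2, against -0.02 over all probe sets tested. Treated and control arrays did not overlap for 7 of 10 member probe sets, against 4.29% of all probe sets. The treated array was the higher in 3 of 3 replicate numbers for 9 of 10, against 13.2% of all.

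The count with the block moved with the replicate numbers kept. Left with 2 replicate numbers, the blocked fit called 6 member probe sets without number 1, 1 without number 2 and 0 without number 3, where Tap1 had an adjusted p of 0.0548 in limma. Over all 31042 probe sets the same fits called 277, 127 and 99 higher, so the loss of calls was not particular to the members. These fits have fewer residual degrees of freedom.

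**Figure D1:**
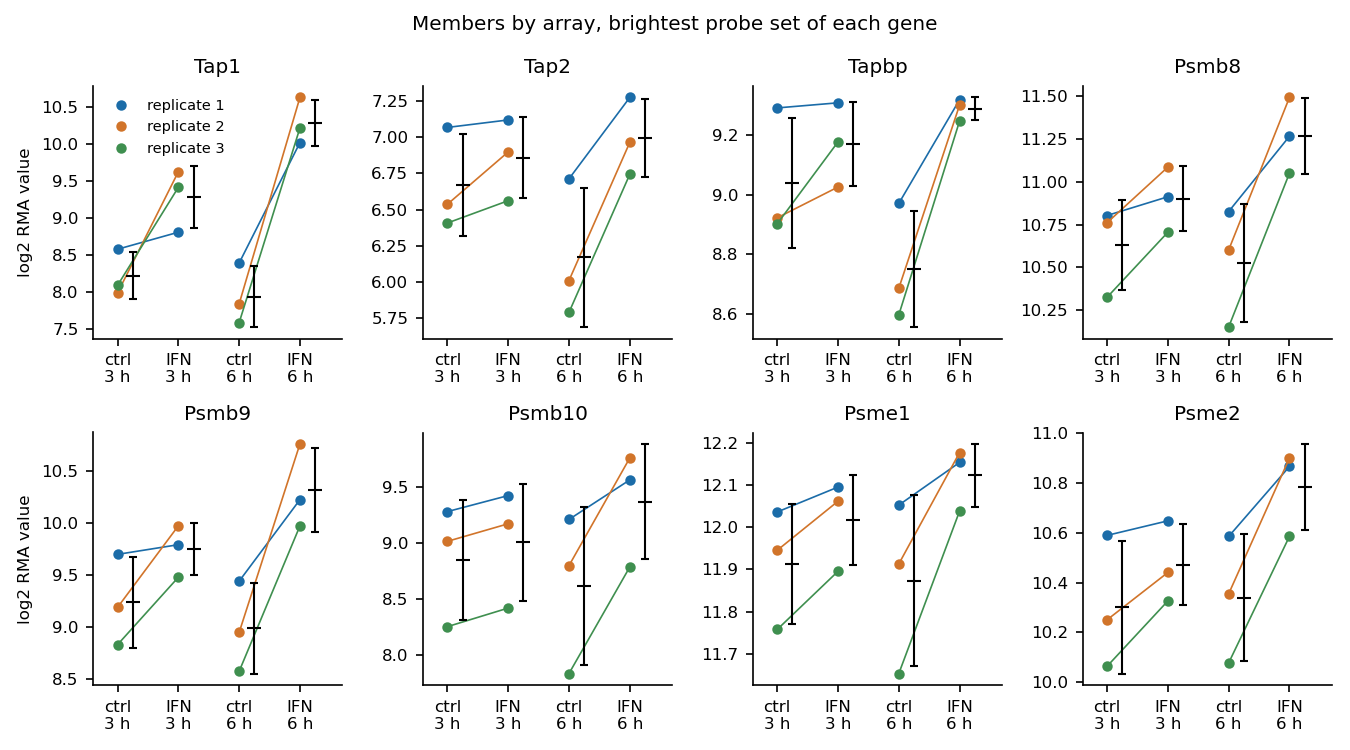
Log2 RMA value (vertical axis) of the brightest probe set of each of the 8 genes in the 4 groups, with 1 point per array, coloured by replicate number. Lines join the control and treated array of the same number and time, and black bars give the group mean ± SD (n = 3). In the 6 h group every line rises, and replicate 1 starts highest and rises least.

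Tap1, which pairs with Tap2 to form the pump, showed the widest separation. Its bright probe set (1388149_at) read 8.40, 7.84 and 7.59 in control replicates 1 to 3 at 6 h, and 10.02, 10.63 and 10.22 in the treated ones. The lowest treated array stood far above the highest control. The change was 2.35 ± 0.27 log2 (SE), and limma gave an adjusted p of 0.00325, or 0.000625 once blocked (1.25e-05 to 0.217 over all 27 settings). Without the block, the call was lost where replicate 2 or 3 was left out of all groups, and there 0 of all 31042 probe sets were called. With it, the adjusted p was 0.0359 without replicate 2, and the call was lost without replicate 3. The dim probe set of Tap1 (1375379_at), whose mean of 4.90 is below the array median, read 4.83, 4.80 and 4.74 in controls and 5.04, 5.39 and 5.15 in treated cells. Here too the groups did not overlap, but the change of 0.40 ± 0.09 log2 had an adjusted p of 0.158, or 0.0620 once blocked (0.0620 to 1.00 over all settings). Both probe sets lie on the same side of 0 and differ in size.

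Tap2 had a smaller fitted change. It read 6.71, 6.01 and 5.79 in 6 h controls and 7.27, 6.96 and 6.74 in treated cells. The arrays of replicate 1 were the highest in both groups, so that treated replicate 3 lay just above control replicate 1. The change was 0.82 ± 0.26 log2 (1.77-fold), where limma gave an adjusted p of 0.664, or 0.000939 once blocked (0.000939 to 1.00 over all settings). Tapbp read 8.97, 8.69 and 8.60 in controls and 9.32, 9.30 and 9.25 in treated cells. Its controls were spread over replicates while its treated arrays lay close together, with an SD of 0.20 against 0.04 (n = 3). The change of Tapbp was 0.54 ± 0.13 log2 (1.45-fold), where the adjusted p was 0.238, or 0.00984 once blocked (0.00984 to 1.00 over all settings).

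Among the immunoproteasome subunits, Psmb9 (LMP2) had the largest fitted change. It read 9.44, 8.95 and 8.57 in 6 h controls and 10.22, 10.76 and 9.97 in treated cells. The groups did not overlap, and replicate 3 was the lowest in both. The change was 1.33 ± 0.28 log2 (2.52-fold), where limma gave an adjusted p of 0.108, or 0.00178 once blocked (0.000260 to 1.00 over all settings). Psmb8 (LMP7) read 10.83, 10.60 and 10.15 in controls and 11.27, 11.49 and 11.05 in treated cells. These groups did not overlap either. Its change was 0.74 ± 0.19 log2 (1.68-fold), where the adjusted p was 0.326, or 0.00223 once blocked (0.00152 to 1.00 over all settings).

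Psmb10 (MECL-1), the catalytic subunit encoded outside the MHC, had the widest spread between replicates. It read 9.21, 8.80 and 7.83 in 6 h controls and 9.56, 9.76 and 8.78 in treated cells. The groups overlapped, since treated replicate 3 lay below control replicates 1 and 2, yet within each replicate number the treated array was the higher. The change was 0.76 ± 0.41 log2 (1.69-fold), where limma gave an adjusted p of 1.00, or 0.00523 once blocked (0.00232 to 1.00 over all settings). The standard error fell from 0.41 to 0.11 with the block, while the change itself stayed as it was.

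The PA28 subunits had the smallest fitted changes. Psme2 (PA28 beta) read 10.58, 10.35 and 10.08 in 6 h controls and 10.86, 10.90 and 10.58 in treated cells. The lowest treated array stood level with the highest control to 2 decimals, just above it. Its change was 0.44 ± 0.16 log2 (1.36-fold), where limma gave an adjusted p of 1.00, or 0.0249 once blocked (0.0249 to 1.00 over all settings). The bright probe set of Psme1 (PA28 alpha, 1367663_at) read 12.05, 11.91 and 11.65 in controls and 12.15, 12.18 and 12.04 in treated cells. Its groups overlapped, and the change of 0.25 ± 0.11 log2 (1.19-fold) had an adjusted p of 1.00, or 0.250 once blocked (0.216 to 1.00 over all settings). The dim probe set of Psme1 (1394006_at), at a mean of 5.50, differed by 0.17 ± 0.15 log2, was higher in 2 of 3 replicate numbers and did not pass (adjusted p 0.814 with the block).

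**Figure D2:**
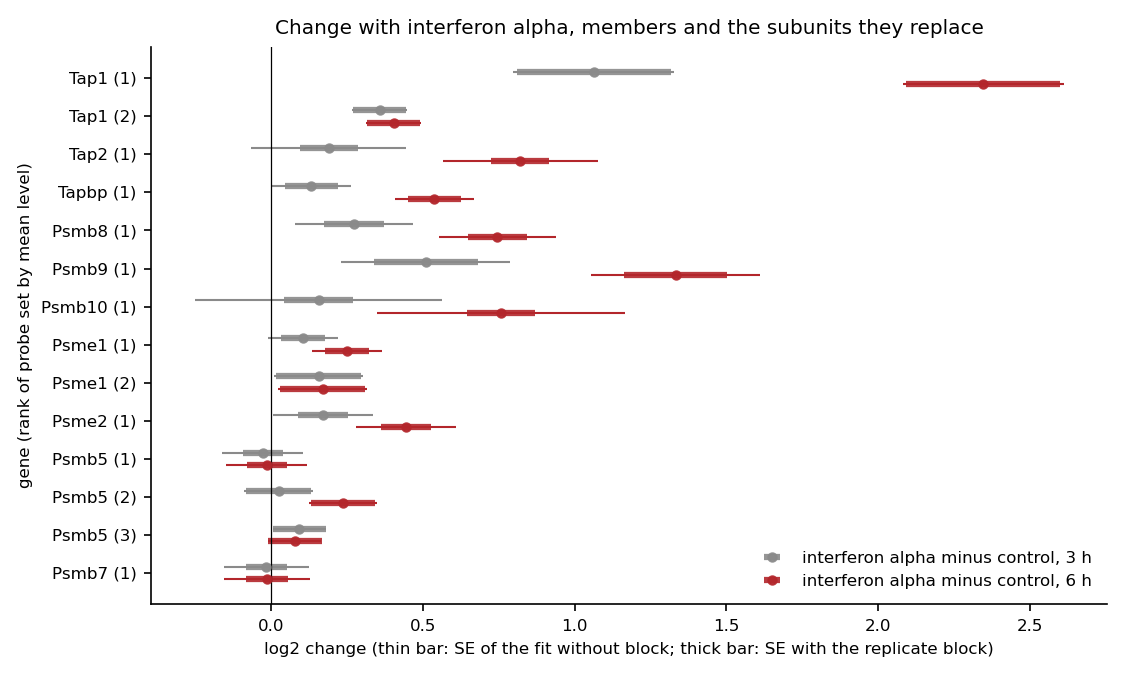
Fitted log2 change with interferon alpha (horizontal axis) at 3 h (grey) and 6 h (red) for each member probe set and for Psmb5 and Psmb7; the number in brackets ranks the probe sets of a gene by mean level. Thin bars are the SE of the fit without the block and thick bars the SE with it. Tap1 reaches 2.35 at 6 h, while the bright probe sets of Psmb5 and Psmb7 stay at -0.02 and -0.01.

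Replicates differed in a like way across the members. In replicate 1 the difference between treated and control array was the smallest of the 3 for all 8 genes at both times, on the brightest probe set. Among all probe sets the share with the smallest difference in replicate 1 was 34.2% at 3 h and 33.9% at 6 h. Among the 329 probe sets called higher at 6 h with the block, it was 90.0% and 72.9%. Tap1 differed by 1.62, 2.78 and 2.63 log2 in replicates 1 to 3 at 6 h, and Psmb9 by 0.78, 1.81 and 1.40. The control of replicate 1 was the highest of the 3 controls in all 8 genes at both times, which held for 32.8% of all probe sets at 3 h and 29.5% at 6 h. Among the same 329 probe sets it held for 48.0% and 50.8%. The differences are taken from these control arrays, so a high control and a small difference are not separate traits. Replicate 3 had the lowest mean deviation from the group means in all 8 genes, which held for 31.4% of all probe sets. The brightest probe sets of Psmb5 (-0.19) and Psmb7 (-0.20), subunits of the standard proteasome, were also lowest in replicate 3.

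Summed levels of some markers of other cells also differed between the replicate numbers. The summed linear level of the 10 measured class II and dendritic cell markers, Cd74 and rat MHC class II genes among them, ran from 1142 to 1323 over the 4 arrays of replicate 1, from 670.4 to 711.4 in replicate 2 and from 439.2 to 491.9 in replicate 3. That of the 10 Kupffer cell and macrophage markers ran from 6909 to 7644, from 5440 to 6055 and from 4284 to 5169. Other lists had another order: cholangiocyte markers summed to 1812 to 2075 in replicate 1, 3075 to 3452 in replicate 2 and 2464 to 3114 in replicate 3. Liver endothelial markers were lowest in replicate 2 (230.7 to 307.2), and lymphocyte and NK cell markers overlapped between the numbers (201.5 to 232.7 in all). Single bright genes carry some of these sums. Epcam (mean 11.28 log2) made up most of the cholangiocyte sum, and the other 5 measured genes lay below the array median. Cd14 (11.90) and Lyz2 (10.54) made up most of the Kupffer sum, and Fcgr2b (7.86) most of the endothelial sum. By group, the class II sum ran from 439.2 to 1323 in 3 h controls and from 450.6 to 1296 in treated cells at 6 h, so that groups overlapped widely. The Kupffer sum likewise ran from 5035 to 7644 in 6 h controls and from 5169 to 7455 in treated cells at 6 h. Fewer cells of a type and less RNA per cell cannot be told apart in such bulk samples, and the part of these cells in the members' replicate differences was not tested.

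The immunoproteasome subunits were set against the subunits they replace in the core. Psmb5 (1371348_at) read 12.64, 12.73 and 12.42 in 6 h controls and 12.59, 12.73 and 12.42 in treated cells. Psmb7 read 11.68, 11.67 and 11.35 in controls and 11.67, 11.67 and 11.32 in treated cells. Within replicate numbers the treated arrays of both genes lay almost on their controls. The 6 h changes were -0.02 ± 0.13 log2 for Psmb5 and -0.01 ± 0.14 for Psmb7, with adjusted p-values of 1.00 in limma, and of 0.976 and 0.979 with the block. The dimmer probe sets of Psmb5 (1385532_x_at and 1385531_at) differed by 0.24 ± 0.11 and 0.08 ± 0.09 and did not pass. The only probe set listing Psmb6 carries a further symbol and is not named here, so Psmb9 has no partner in this comparison.

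The change of Psmb8 averaged over both times exceeded that of Psmb5 by 0.53 log2. A two-sided exact permutation test, with treatment labels rearranged within times, gave p = 0.005, the smallest that 400 arrangements allow, or 0.01 after Benjamini-Hochberg adjustment over the 2 pairs. The excess was 0.30 at 3 h and 0.76 at 6 h and lay above 0 in 6 of 6 treated-control pairs. For Psmb10 against Psmb7 it was 0.47 log2, at 0.17 at 3 h and 0.77 at 6 h, and also above 0 in 6 of 6 pairs. The exact permutation test gave p = 0.09 for this pair (adjusted 0.09). With differences taken within replicate numbers and their signs flipped, the exact p was 0.03125 for either pair, the smallest that 64 flips allow. The flips treat the 6 treated-control pairs as independent. Each replicate number gave a pair at 3 h and at 6 h, so this p can be too small. The test between Psmb10 and Psmb7 without the pairing turned on single arrays: it gave p = 0.04 without control replicate 1 at 3 h and p = 0.045 without treated replicate 3 at 3 h, in exact permutation tests.

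**Figure D3:**
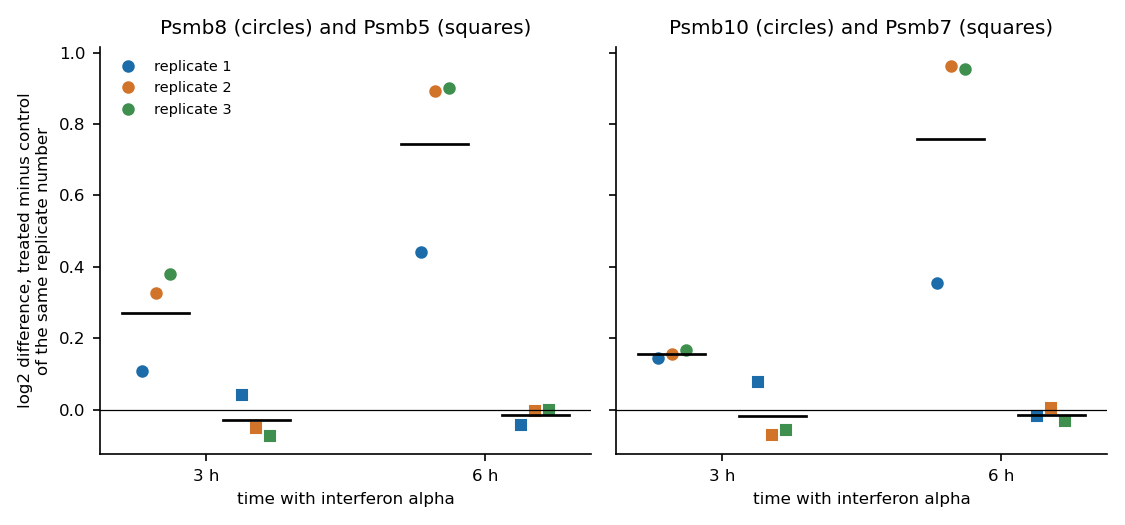
Difference between treated and control array of the same replicate number (log2, vertical axis) at 3 h and 6 h, for Psmb8 (circles) with Psmb5 (squares) on the left and Psmb10 with Psmb7 on the right; black lines are means of 3 replicates. The circles reach means of 0.74 and 0.76 at 6 h and the squares stay near 0.

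At 3 h, none of the member probe sets passed in limma, with or without the block. Without it 0.00644% of all probe sets were called higher, and with it 0.0934%. At an unadjusted p under 0.05, 2 of 10 passed without the block and 4 with it, against 915 and 2094 of all 31042 probe sets. Treated arrays were above controls without overlap for 2 of 10, both of them probe sets of Tap1, against 4.53% of all probe sets. The treated array was the higher in 3 of 3 replicate numbers for 9 of 10, against 14.4% of all. The median change was 0.18 log2, against -0.01 over all probe sets.

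The bright probe set of Tap1 read 8.58, 7.99 and 8.09 in 3 h controls and 8.81, 9.63 and 9.42 in treated cells. Replicate 1 differed by 0.23 log2 where replicates 2 and 3 differed by 1.64 and 1.32. The change was 1.06 ± 0.27 log2 (2.09-fold), where limma gave an adjusted p of 0.938, or 0.316 once blocked (0.00139 to 1.00 over all settings). It was called in a single setting, the blocked fit without replicate number 1, where the change was 1.48 ± 0.13. The dim Tap1 probe set read 4.67, 4.60 and 4.64 in controls and 4.97, 5.00 and 5.01 in treated cells, a change of 0.36 ± 0.09 log2 with an adjusted p of 0.938 (0.272 to 1.00 over all settings). Its 3 h difference was thus close to its 6 h difference, unlike that of the bright probe set.

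Psmb9 read 9.70, 9.19 and 8.83 in 3 h controls and 9.79, 9.97 and 9.48 in treated cells, and the groups overlapped. Its change was 0.51 ± 0.28 log2. Psmb8 read 10.80, 10.76 and 10.32 in controls and 10.91, 11.09 and 10.70 in treated cells, a change of 0.27 ± 0.19. The groups of the other members overlapped at 3 h as well. Their changes on the brightest probe set ran from 0.10 for Psme1 through 0.13 for Tapbp, 0.16 for Psmb10 and 0.17 for Psme2 to 0.19 for Tap2.

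Averaged over both times, with 6 treated and 6 control arrays, 2 of 10 member probe sets passed in limma, both of Tap1, where 0.432% of all probe sets were called higher. The bright one rose by 1.70 ± 0.19 log2 (adjusted p 0.00215) and the dim one by 0.38 ± 0.06 (adjusted p 0.0263). With the block 8 of 10 passed, for the same 7 genes as at 6 h, where 1.02% of all probe sets were called higher. The average changes of the other 6 genes ran from 0.31 ± 0.06 for Psme2 to 0.92 ± 0.12 for Psmb9 (SE with the block). The blocked count was 8 without replicate number 1, 1 without number 2 and 0 without number 3. In the same fits 298, 134 and 110 of all 31042 probe sets were called higher.

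The interferon difference was larger at 6 h than at 3 h in all 10 member probe sets, by a median of 0.44 log2 against -0.00 over all probe sets. No probe set of any gene passed the test of this increase in limma (0% of all, with and without the block). At an unadjusted p under 0.05, 2 member probe sets passed without the block and 7 with it, against 673 and 1466 of all probe sets. The fitted increase was 1.28 ± 0.38 log2 for Tap1, 0.82 ± 0.39 for Psmb9, 0.63 ± 0.36 for Tap2, 0.60 ± 0.58 for Psmb10 and 0.41 ± 0.18 for Tapbp. All had an adjusted p of 1.00 in limma, and between 0.538 and 0.766 with the block.

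The controls of both times were set side by side as well. In 5 of 10 member probe sets, those of Tap2, Tapbp, Psmb9, Psmb10 and the bright one of Tap1, the control was lower at 6 h than at 3 h in 3 of 3 replicate numbers, against 20.2% of all probe sets. In the same 5 the treated arrays were higher at 6 h than at 3 h in 3 of 3, a joint pattern that 1.16% of all probe sets show. Tap2 had the largest mean control difference of the 5, at -0.50 log2. Its controls read 7.07, 6.54 and 6.41 at 3 h and 6.71, 6.01 and 5.79 at 6 h, while its treated arrays read 7.12, 6.90 and 6.56 at 3 h and 7.27, 6.96 and 6.74 at 6 h. The mean of its treated arrays was 0.13 higher at 6 h.

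Over the same time the control of Tap2 fell by 0.50 ± 0.10 log2 with the block (adjusted p 0.0107 in limma, and 0.570 without the block). It was the 1 of 10 member probe sets called lower in controls, where 4.82% of all probe sets were, and without the block 0 of 10 and 0.0999% of all were. Tapbp had a control difference of -0.29 ± 0.09 log2 (adjusted p 0.0708 with the block). The control difference of Psmb9 was -0.25 and even across replicates, at -0.26, -0.24 and -0.26, with an adjusted p of 0.449 with the block. The dim probe set of Tap1 went the other way, at 0.15 log2. The interferon difference at 6 h and the control difference between times share the 6 h control arrays, so they are given side by side and not as separate support for each other.

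**Figure D4:**
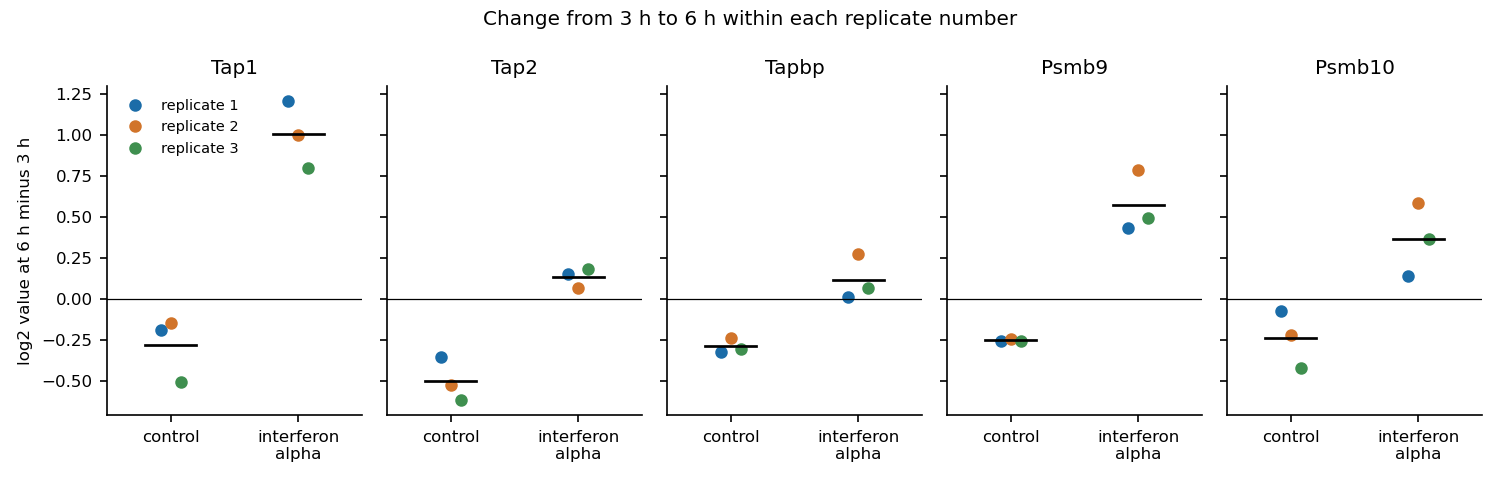
Value at 6 h minus value at 3 h (log2, vertical axis) within each replicate number, for control and interferon alpha arrays, in the 5 genes whose controls were lower and whose treated arrays were higher at 6 h in 3 of 3 replicate numbers; black lines are means. The control points lie below 0 and the treated points above 0 in each panel.

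In most members the group means stood in 1 order, with the 6 h control lowest, then the 3 h control, the treated cells at 3 h and the treated cells at 6 h. On the brightest probe sets 7 of 8 genes had this order, against 3.89% of all probe sets, and in Psme2 the controls changed places. The controls of both times overlapped in all 8 genes, as in 85.9% of all probe sets. The dim probe set of Tap1 had higher controls at 6 h (4.74 to 4.83 log2) than at 3 h (4.60 to 4.67), with no overlap. Treated cells at 3 h and 6 h did not overlap for Tap1 and overlapped, for example, for Tap2.

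The rest of the proteasome gave few calls at 6 h, and so did genes at large: 80 of all 14217 rose without the block and 206 with it. The counts in this paragraph and the next are near those shares and do not set these genes apart. Of the 11 structural subunits of the 20S core, 0 passed in limma with or without the block (0 and 1 at an unadjusted p under 0.05), with a median change of 0.03 log2. Psma6 and Psmb4, the brightest of them, differed by 0.04 ± 0.10 and -0.03 ± 0.12. Of the 21 subunits of the 19S particle, which recognises and unfolds tagged proteins, 0 passed (0 and 0 unadjusted), with a median of -0.06. Of 7 assembly factors and other regulators, Psmf1, a proteasome inhibitor known as PI31, rose by 0.35 ± 0.07 log2 with the block (adjusted p 0.0276, and 0.0960 without it).

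The helpers that trim peptides or load them onto class I molecules also gave 0 of 14 calls (0 and 2 unadjusted), with a median of -0.04 log2. Among them the chaperones Hspa5 and Calr differed by -0.01 ± 0.15 and -0.05 ± 0.10. For comparison, the same 80 and 206 of all 14217 genes rose at 6 h without and with the block, and the median over all genes was -0.02. The 8 members had a median of 0.75 on their brightest probe sets.

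Of the class I list 12 of 28 genes have a probe set with 1 symbol. At 6 h 2 of these passed without the block and 4 with it, at a median of 0.25 log2. Of all 14217 genes, 80 and 206 rose in the same fits. Nlrc5, the transactivator of class I genes, rose by 1.99 ± 0.26 (adjusted p 0.00704). RT1-N3 rose by 1.87 ± 0.29 (adjusted p 0.0184). RT1-N2 and RT1-T24-3 passed only with the block, at 1.20 ± 0.12 and 0.95 ± 0.18 (adjusted p 0.000468 and 0.0325 in limma). Without it their SE were 0.48 and 0.36, and neither passed. Some RT1 genes are close copies of each other, so which RT1 gene a probe set reads is uncertain.

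Of 15 genes of interferon signalling and class I transcription control, 2 passed at 6 h without the block and 4 with it. Their median was 0.08 log2, and 80 and 206 of all 14217 genes rose in the same fits. Irf9 and Stat2, partners in ISGF3, rose by 1.20 ± 0.19 (adjusted p 0.0209) and 1.52 ± 0.21 (adjusted p 0.00981). Irf1, a transcription factor that also binds ISRE-type elements, stood at 2.22 log2 at 6 h (adjusted p 0.0608, and 0.00203 with the block). At 3 h Irf1 stood at 2.24 (adjusted p 0.322, and 0.0218 with the block). The bright probe set of Tap1 stood at 1.06 log2 at 3 h without passing. An order in time between Irf1 and the members was not tested. Rfx5, which binds class I and class II promoters, passed only with the block, at 0.65 ± 0.13 (adjusted p 0.0441 in limma). Without it the SE was 0.32, and Rfx5 did not pass.

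Over the 12 arrays, the members' brightest probe sets correlated with each other at a median r of 0.839, from 0.565 for Tap1 with Psmb10 to 0.972 for Psmb8 with Psmb9. The arrays share groups and replicate numbers, so this is a description only. The genes most like Tap1 over the 12 arrays were Cnp (r = 0.997), Isg15, Rig1, Ifih1 and Cmpk2 (each 0.986). Those most like Psmb9 were Gbp7 (0.993), Oas1a (0.990), Ube2l6 (0.984), Ddx60 (0.975) and Parp12 (0.967). The closest genes differed in size of change from the member they followed: Cmpk2 stood at 4.90 ± 0.54 log2 at 6 h and Gbp7 at 3.60 ± 0.77. No gene was in both groups of 5.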

How the data were processed

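The authors deposited log2 values, 1 per probe set and array. The submitters' processing notes name RMA, affy and R 2.10.0. Which probe set definition was used is not given in the sources here. RMA equalizes the arrays and would hide a shift common to most transcripts. The 57 control probe sets were left out. Probe sets were named from the platform annotation: 20826 had 1 symbol, 436 several and 9780 were not listed. The single probe set listing Psmb6 has several symbols, so the planned pair of Psmb9 and Psmb6 was not run.

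Groups were compared in limma 3.58.1 (R 4.3.3; lmFit and eBayes) over all 12 arrays without a block, with 5 comparisons, and p-values adjusted by Benjamini-Hochberg over 31042 probe sets. A call is an adjusted p under 0.05, and limma p-values are two-sided. The fit with the replicate number as a block is the first alternative. The numbers pair the arrays: deviations from group means correlated at 0.651 to 0.829 for arrays of the same number and time and at 0.479 to 0.736 across times, against -0.562 to -0.0747 for different numbers. Deviations cancel out within a group, so the negative values follow in part from the positive ones and are no separate evidence. Where 1 value per gene was needed, the probe set brightest on average was taken. All member probe sets are named; of other lists, up to 4 called genes or else the 2 brightest; and the 5 genes most correlated with Tap1 and with Psmb9. Promoter sequences and gene order came from RefSeq tables of GRCr8, and all 8 members were matched. The fits were tested on simulated data that held no replicate effect, so that test does not bear on the choice of the block. The members and lists were chosen with earlier results of these data known. With 3 arrays per group, the number of arrays limits the precision.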

Additional observations from a re-analysis of the deposited data

Results flagged for a closer look

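In 5 genes the control arrays were lower at 6 h than at 3 h in each of 3 replicate numbers, while the arrays with interferon alpha were higher. The treated change from 3 h to 6 h exceeded that of the controls by 1.28 log2 for Tap1, 0.63 for Tap2, 0.41 for Tapbp, 0.82 for Psmb9 and 0.60 for Psmb10. The difference was tested as an interaction in limma, and none of the 5 passed, with adjusted p-values of 1.00 without the block and 0.538 to 0.766 with it. Of all probe sets, 1.16% showed this pattern of opposite directions.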

How the results depend on the processing

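At 6 h the count of member probe sets called higher was 1, and it became 7 with the replicate block, 7 with the block within each time and 6 with the block without replicate 1. It became 0 without replicate 2 or 3 in all groups, where 0 of all 31042 probe sets were called. With the block without replicate 3 it was also 0, where 99 of all 31042 were called higher. At 3 h the count of 0 became 1 with the block without replicate 1, where 111 of all 31042 probe sets were called higher. For the average the count of 2 became 8 under the replicate block, 8 with it within each time and 8 with it without replicate 1; it was 1 with the block without replicate 2 and 0 with it without replicate 3. It was 1 without replicate 1 in all groups, 0 without replicate 2 or 3, and 1 among probe sets above the median level, where the dim Tap1 probe set is left out by construction; leaving out single arrays gave 1 to 2. For controls the count of 0 called lower became 1 with the block, also without replicate 1. The excess of Psmb10 over Psmb7 stayed at 0.47 log2 with the replicate block. Its exact p from flipped signs was 0.03125, with the 6 pairs treated as independent. Without single arrays the excess ran from 0.33 to 0.59 log2, with exact permutation p from 0.04 to 0.19. The excess reached 0.58 without control replicate 1 at 3 h and 0.57 without treated replicate 3 at 3 h. That of Psmb8 over Psmb5 ran from 0.48 to 0.59 without single arrays, with exact permutation p from 0.005 to 0.01, and was 0.44 (exact permutation p 0.005) with the mean of all probe sets of each gene. Fits with fewer arrays also have fewer residual degrees of freedom, and the cause of these shifts was not tested. Centring, renewed quantile normalization, limma-trend, robust eBayes and fits on the compared arrays alone changed none of the members' calls. Of 1265 member values under the alternatives, 24 changed sign, 0 of them called and 0 of them at 6 h or in the average. The background correction and the slide or scan date could not be varied with these values.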
